A study of Mus musculus with 6 samples.

Results

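The interferon regulatory factors (IRFs) and 2 STAT proteins that work with them were examined in RAW-D macrophages with and without Lpin2. The 10 genes were chosen by name from those the array annotates, of 19505 genes measured: Irf1, Irf2, Irf3, Irf4, Irf5, Irf7, Irf8, Irf9, Stat2 and Stat3. Each was read from the probe set of the gene with the highest mean. RAW-D is a subclone of the mouse macrophage line RAW264.7 that readily forms osteoclasts. Wild-type (WT) RAW-D cells and 2 Lpin2 knockout (KO) clones, #1 and #2, were each left untreated or given LPS, the endotoxin of Gram-negative bacteria, at 200 ng/mL for 4 h. The KO clones were made with CRISPR/Cas9 and a homology-directed repair plasmid, selected with puromycin and isolated as single clones. Lpin2 encodes lipin2, a phosphatidic acid phosphatase. Total RNA was measured on 6 Clariom S arrays, 1 per culture, so WT had 1 array per treatment and KO had 1 array of each clone per treatment. The labels name no WT clone that went through the same selection, so the knockout, the selection and the isolation of a clone cannot be told apart. The question was whether the knockout changed the transcriptional response of macrophages to LPS.

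IRFs are transcription factors that share a DNA-binding domain and bind the interferon-stimulated response element (ISRE) and related sites. In macrophages, TLR4 senses LPS and, through the kinase TBK1, activates IRF3, which then turns on the gene of interferon-β, Ifnb1. Secreted interferon acts back through its receptor and Janus kinases on ISGF3, a complex that holds STAT2 and IRF9, and ISGF3 induces antiviral genes and Irf7, whose product amplifies interferon production. STAT3 is the factor used by interleukin-6 and interleukin-10. The arrays measured RNA, not the phosphorylation that activates IRF3, STAT2 or STAT3.

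The values are log2 RMA signals, so a difference of 1 is a doubling. An array's background was set at the 95th percentile of its 5222 negative control probes, which lay between 9.12 and 9.45, and 28.7% to 31.4% of all genes exceeded it. A gene whose signal did not exceed background on any array of a group is called dim in that group. Of 9 macrophage markers measured, 7 were above background on all 6 arrays, while no marker of dendritic, B, T and NK cells, neutrophils and mast cells, or fibroblasts and epithelium was above it on any array. Lpin2 itself was dim on all 6 arrays (6.84 to 8.42), so these arrays cannot check the genotype. A gene-level summary is named in the labels for untreated WT cells and an exon-level one for the other arrays. Every untreated difference between KO and WT cells, the LPS change of WT cells and the difference between the LPS responses rest on that 1 array. Whether the summary moves with these values was not tested. In bulk RNA, fewer cells that express a gene and less RNA per cell cannot be told apart.

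Promoter windows of the genes were searched for 3 motifs that IRF and STAT proteins and NF-κB are known to bind, to show which regulatory letters lie at their starts. The windows came from RefSeq (GRCm38.p6), from 250 bases before to 50 bases after each annotated start, and gave 13 windows for the 10 genes. The ISRE was searched as a GAAA, any 2 bases and a second GAAA, and the STAT site GAS as TTCNNNGAA, with the κB motif of NF-κB, on both strands. None of the matches overlapped. The ISRE letters were found in windows of 2 genes, against 3.44% of 32851 windows of all genes. GAS was found for 3 genes (8.30% of all windows) and the κB motif for 2 (8.46%). Windows of 4 genes held a match and are shown 5′ to 3′ on the coding strand, with the motif in capitals. Irf1 (chr11:53769764-53770063, plus strand) held GAS at -90 to -82 from the start and the κB motif at -13 to -4. Irf2 (chr8:46739495-46739794, plus strand) held the ISRE at -241 to -232, GAS at -224 to -216 and the κB motif at -17 to -8. Irf8 (chr8:120736108-120736407, plus strand) held GAS at -171 to -163 and again at -153 to -145. Stat2 (chr10:128270248-128270547, plus strand) held the ISRE on the reverse strand at -222 to -213. The windows of Irf3, Irf4, Irf5, Irf7, Irf9 and Stat3 had none of these letters. A match is a description of the sequence and not evidence of binding.
Irf1: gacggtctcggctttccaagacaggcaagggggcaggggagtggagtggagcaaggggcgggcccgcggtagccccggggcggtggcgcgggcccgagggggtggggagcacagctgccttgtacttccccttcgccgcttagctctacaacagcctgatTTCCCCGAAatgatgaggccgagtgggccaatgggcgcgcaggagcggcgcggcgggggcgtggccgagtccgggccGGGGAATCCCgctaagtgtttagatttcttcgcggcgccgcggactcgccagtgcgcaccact
Irf2: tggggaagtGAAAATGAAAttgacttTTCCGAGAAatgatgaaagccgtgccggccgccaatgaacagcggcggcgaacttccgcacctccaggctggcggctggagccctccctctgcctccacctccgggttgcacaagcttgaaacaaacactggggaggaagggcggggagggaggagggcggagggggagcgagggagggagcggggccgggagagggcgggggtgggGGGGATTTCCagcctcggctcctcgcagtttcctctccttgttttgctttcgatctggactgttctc
Irf8: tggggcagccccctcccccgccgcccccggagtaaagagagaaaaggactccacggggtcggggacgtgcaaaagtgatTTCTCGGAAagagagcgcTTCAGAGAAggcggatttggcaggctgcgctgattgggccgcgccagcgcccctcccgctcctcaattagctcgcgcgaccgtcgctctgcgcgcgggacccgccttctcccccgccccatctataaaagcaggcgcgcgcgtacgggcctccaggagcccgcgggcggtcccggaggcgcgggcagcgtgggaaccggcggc
Stat2: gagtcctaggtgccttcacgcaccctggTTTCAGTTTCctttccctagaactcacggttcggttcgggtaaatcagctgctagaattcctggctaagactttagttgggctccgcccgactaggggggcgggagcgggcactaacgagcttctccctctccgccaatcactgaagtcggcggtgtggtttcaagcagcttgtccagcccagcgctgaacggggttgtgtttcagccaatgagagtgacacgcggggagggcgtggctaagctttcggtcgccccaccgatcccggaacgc

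**Figure D1:**
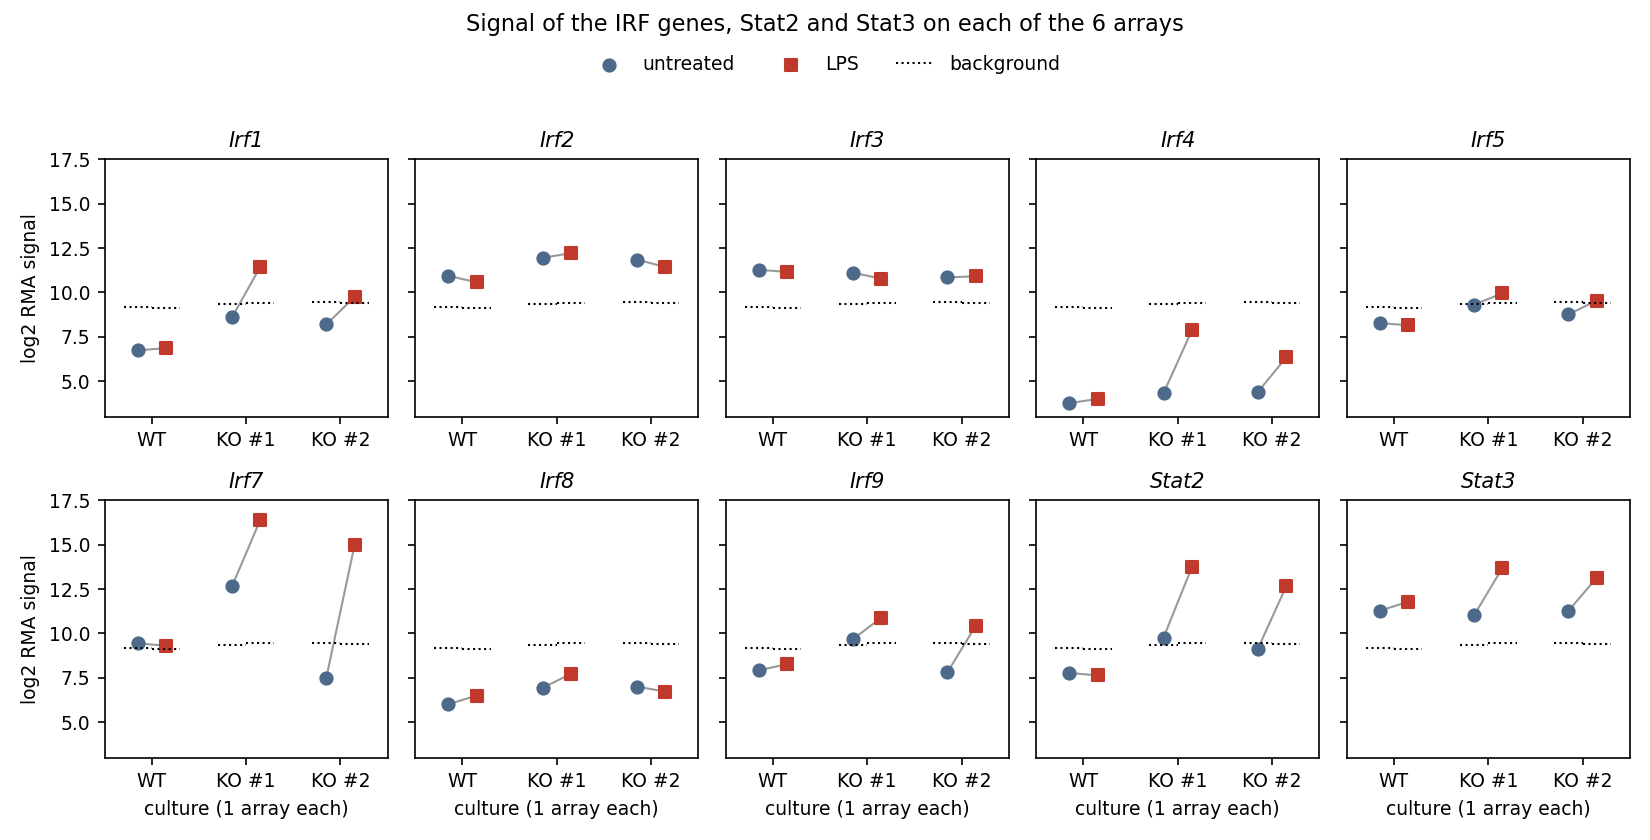
Log2 RMA signal (vertical axis) of each of the 10 genes in WT, KO #1 and KO #2 cells (horizontal axis), untreated (circles) and with LPS (squares), 1 array per point, with the background of each array as a dotted line. Irf7, Stat2 and Stat3 reached their highest values on both KO arrays with LPS, while Irf3 stayed within 0.50 over all 6 arrays.

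With LPS, 5 of the 10 genes rose in KO over WT cells: Irf1, Irf4 (dim in both groups), Irf5, Stat2 and Stat3. No gene of the 10 fell. Stat2 had the largest difference among them, at least 16.8-fold, and Stat3 was 3.11-fold higher. Irf7 had a larger difference still, but the clones varied too much for it to pass. Of all genes, 4.62% rose in this comparison (limma, adjusted p under 0.05 over all genes). With the clone as a block in the fit, 8 of the 10 genes passed, where 5.88% of all genes rose. The difference was over 2-fold upward for 8 of them, against 5.39% of all genes, and both KO arrays were above the WT array for 9 of them, against 38.4% of all genes. The median log2 difference of the 10 genes was 2.01, where that of all genes was -0.0028. The error of each test without the block came from the spread between the KO clones, and the WT array was assumed to vary like a clone. The p of the block fit does not cover variation between clones. An exact permutation test of 2 arrays against 1 cannot give a p under 0.333.

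**Figure D2:**
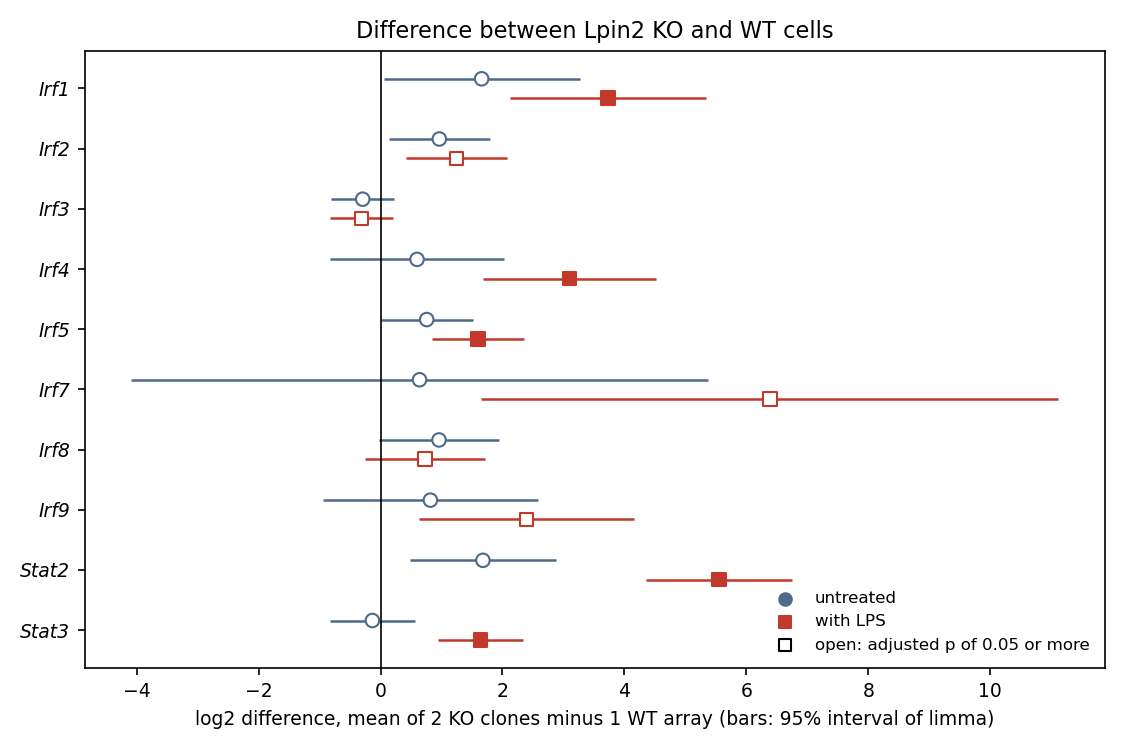
Log2 difference of the KO mean (2 clones) from the WT array (horizontal axis) for each gene (vertical axis), untreated (circles) and with LPS (squares), with limma's 95% interval as a bar. Filled symbols have an adjusted p under 0.05, which 5 genes had with LPS and none had untreated.

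Irf3 and Irf7 are the factors that TBK1 activates. Irf3, present in resting cells, read 11.27 in untreated WT cells and 11.11 and 10.85 in untreated KO #1 and #2, and with LPS it read 11.16 in WT and 10.77 and 10.91 in KO. Its signal was above background on every array and moved little. The KO difference with LPS was -0.32 (SE 0.21, 95% interval -0.84 to 0.20, limma adjusted p = 0.444).

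Irf7, an IRF gene that interferon induces, read 9.44 in untreated WT cells and 9.31 in WT with LPS. These lay just above the backgrounds of those arrays, 9.21 and 9.12. In untreated KO cells it read 12.65 in clone #1 and 7.51 in clone #2, on opposite sides of WT, and the value of clone #2 was below background. With LPS both clones were far above WT, at 16.40 and 14.998. The KO mean with LPS was 15.70 ± 0.99 (SD, n = 2), and the difference from WT was 6.39 (SE 1.92, 95% interval 1.65 to 11.1), which did not pass (limma adjusted p = 0.101). It passed with the clone as a block (limma adjusted p = 0.00424), where a constant offset of a clone does not count as error, and it passed without either untreated KO array (limma adjusted p = 0.00831), since the gap between the untreated clones then no longer entered the error.

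STAT2 and IRF9 are the subunits of ISGF3 measured here. Stat2 read 7.78 and 7.64 in WT cells without and with LPS, both below background. Untreated KO cells read 9.77 in clone #1 and 9.14 in clone #2, and LPS-treated KO cells read 13.73 and 12.65. The signals of the 6 arrays thus fell in 3 ranges that did not overlap: WT, untreated KO and KO with LPS. Untreated clone #2 was below background, as was WT, so only untreated clone #1 set the lower 2 ranges apart above background. With LPS, the KO mean was 13.19 ± 0.76 (SD, n = 2), higher than WT by 5.55 (SE 0.48, 95% interval 4.36 to 6.74, limma adjusted p = 0.0021). As WT was dim, the difference is given as at least 16.8-fold, with WT set at the background. This call held under all 13 alternatives, with an adjusted p of 4.33e-05 to 0.00689.

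Irf9, which gives ISGF3 its DNA contact, read 7.93 and 8.27 in WT cells without and with LPS. Untreated KO #1 and #2 read 9.68 and 7.81, and with LPS they read 10.89 and 10.43. Both LPS-treated clones were above every other array, while untreated clone #2 was close to WT. The difference from WT with LPS was 2.39 (SE 0.72, at least 2.92-fold) and did not pass (limma adjusted p = 0.0999). It passed with the clone as a block (limma adjusted p = 0.00822) and without either untreated KO array (limma adjusted p = 0.0137).

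IRF1 and IRF2 bind the same sites, where IRF1 activates and IRF2 often represses. Irf1 read 6.74 and 6.87 in WT cells without and with LPS, and 8.60 and 8.20 in untreated KO #1 and #2. With LPS the clones read 11.45 and 9.75, and these were the only arrays with Irf1 above background. The difference from WT with LPS was 3.73 (SE 0.65, limma adjusted p = 0.0197), at least 2.80-fold, or at least 5.04-fold for clone #1 and 1.55-fold for clone #2. Irf2 was above background on all 6 arrays and varied less. It read 10.94 and 10.58 in WT without and with LPS, 11.95 and 11.85 in untreated KO, and 12.21 and 11.43 in KO with LPS. All 4 KO arrays were above both WT arrays. The difference with LPS was 1.25 (SE 0.33, 95% interval 0.42 to 2.07) and did not pass (limma adjusted p = 0.0742). It passed with the clone as a block (limma adjusted p = 0.0239), with an intensity trend (limma adjusted p = 0.047) and without LPS-treated clone #2, where the difference was 1.64 (limma adjusted p = 0.00806).

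Irf5 encodes a factor that works downstream of MyD88 in the induction of inflammatory cytokines. It read 8.28 and 8.15 in WT without and with LPS, 9.31 and 8.76 in untreated KO #1 and #2, and 9.96 and 9.55 in KO with LPS. All 4 KO arrays were above both WT arrays, but only the LPS-treated clones were above background. The difference from WT with LPS was 1.60 (SE 0.31, limma adjusted p = 0.0262), at least 1.55-fold. Without LPS-treated clone #1 it was 1.39 and no longer passed (limma adjusted p = 0.0525).

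IRF4 and IRF8 are lineage factors that bind DNA with PU.1, and both genes were dim on all 6 arrays. Irf4 read 3.77 and 4.01 in WT without and with LPS, 4.34 and 4.40 in untreated KO, and 7.87 and 6.34 in KO #1 and #2 with LPS. The difference with LPS was 3.10 (SE 0.58, limma adjusted p = 0.0242), but as both groups were below background no fold is given, and the call was lost without either untreated KO array (limma adjusted p = 0.0607). Irf8 read 6.01 and 6.50 in WT, 6.94 and 7.004 in untreated KO, and 7.72 and 6.73 in KO with LPS. Its difference with LPS was 0.72 (SE 0.40, 95% interval -0.26 to 1.71, limma adjusted p = 0.344), and 1.22 without LPS-treated clone #2 (limma adjusted p = 0.0227).

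Stat3 was above background on all 6 arrays. It read 11.28 and 11.78 in WT without and with LPS, 11.02 and 11.27 in untreated KO #1 and #2, and 13.69 and 13.14 in KO with LPS. The untreated arrays of both genotypes lay close together, and both LPS-treated clones were above every other array. The KO mean with LPS, 13.41 ± 0.39 (SD, n = 2), was higher than WT by 1.64 (SE 0.28, 95% interval 0.94 to 2.34, limma adjusted p = 0.0192), or 3.11-fold.

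Before LPS, 0 of the 10 genes passed between KO and WT cells in either direction, against 4.31% of all genes (limma), and 4 of them had an unadjusted p under 0.05, as had 3904 of all genes. The differences ran from -0.29 for Irf3 to 1.68 for Stat2, and their median was 0.79, where that of all genes was 0.027. With the clone as a block 2 genes passed upward, against 3.54% of all genes. They were Stat2, with a difference of 1.68 (SE 0.48, at least 1.19-fold, limma adjusted p = 0.131, and 0.00968 with the block), and Irf1, with 1.66 (SE 0.65, limma adjusted p = 0.236, and 0.0488 with the block). Irf1 was dim in both untreated groups, and Stat2 was above background in untreated clone #1 only. Both passed as well without either LPS-treated KO array (limma adjusted p = 0.0187 for Irf1 and 0.0329 for Stat2). The Irf7 difference was 0.64 with a 95% interval of -4.09 to 5.37, and the clones lay on either side of WT. Stat3 differed by -0.13 (SE 0.28, limma adjusted p = 0.848).

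LPS raised 4 of the 10 genes in KO cells: Irf1, Irf4, Stat2 and Stat3. Of all genes, 6.84% rose (limma, 2 clones against 2). With the clone as a block 7 of them passed, against 7.97% of all genes, and for 7 of them both LPS arrays were above both untreated arrays, against 24.4% of all genes. Stat2 rose by 3.96 in clone #1 and 3.51 in clone #2, with a mean of 3.73 (SE 0.39, limma adjusted p = 0.00257), or 13.3-fold. Stat3 rose by 2.67 and 1.87, with a mean of 2.27 (SE 0.23, limma adjusted p = 0.00229), or 4.82-fold. Untreated clone #2 was below background for Stat2, so its own change is at least 3.20. Both genes were higher with LPS in both clones. Irf1 rose by 2.85 and 1.55, with a mean of 2.20 (SE 0.53, limma adjusted p = 0.0425), at least 2.31-fold, where clone #2 alone gave a log2 change above background of at least 0.30, and this call was lost without untreated clone #1 or #2 (limma adjusted p = 0.133 and 0.198) and with a robust intensity trend (limma adjusted p = 0.0624). Irf4, dim in both groups, changed by 3.53 and 1.94 (limma adjusted p = 0.014), and its call was lost without untreated clone #1 or #2 (limma adjusted p = 0.0834 and 0.0809).

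Irf7 had a mean change of 5.62 (SE 1.57), with 3.74 in clone #1 and 7.49 in clone #2, and it did not pass (limma adjusted p = 0.0657). Untreated clone #2 was below background, so its change is at least 5.54. It passed with the clone as a block (limma adjusted p = 0.00242), with an intensity trend (limma adjusted p = 0.0381) and without untreated clone #1, where it was 8.19 (limma adjusted p = 0.00587). Irf9 changed by 1.21 in clone #1 and 2.62 in clone #2, with a mean of 1.92 (SE 0.58, limma adjusted p = 0.0851, and 0.0068 with the block). Without untreated clone #1 it was 2.85 and passed (limma adjusted p = 0.0104). Untreated clone #2 was below background here too, so its change in Irf9 is at least 0.98, and the clones have no order. Irf5 changed by 0.65 and 0.78 (limma adjusted p = 0.123, and 0.0328 with the block). Irf2, Irf3 and Irf8 had mean changes of -0.08, -0.14 and 0.25, with limma adjusted p from 0.702 to 0.904.

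In WT cells the signal of none of the 10 genes differed by more than 0.50 between the LPS and the untreated array. Irf1, Irf4, Irf5, Irf8, Irf9 and Stat2 were dim on both WT arrays, so their change was not measured above background. No gene passed, and 0% of all genes did, where 658 genes and none of the 10 had an unadjusted p under 0.05 (limma). The largest WT values were 0.50 for Stat3, 0.49 for Irf8 and -0.36 for Irf2. These are differences between 1 array and 1 array, with the error taken from the KO clones, so a change in WT cells of the size of that error could not be detected.

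**Figure D3:**
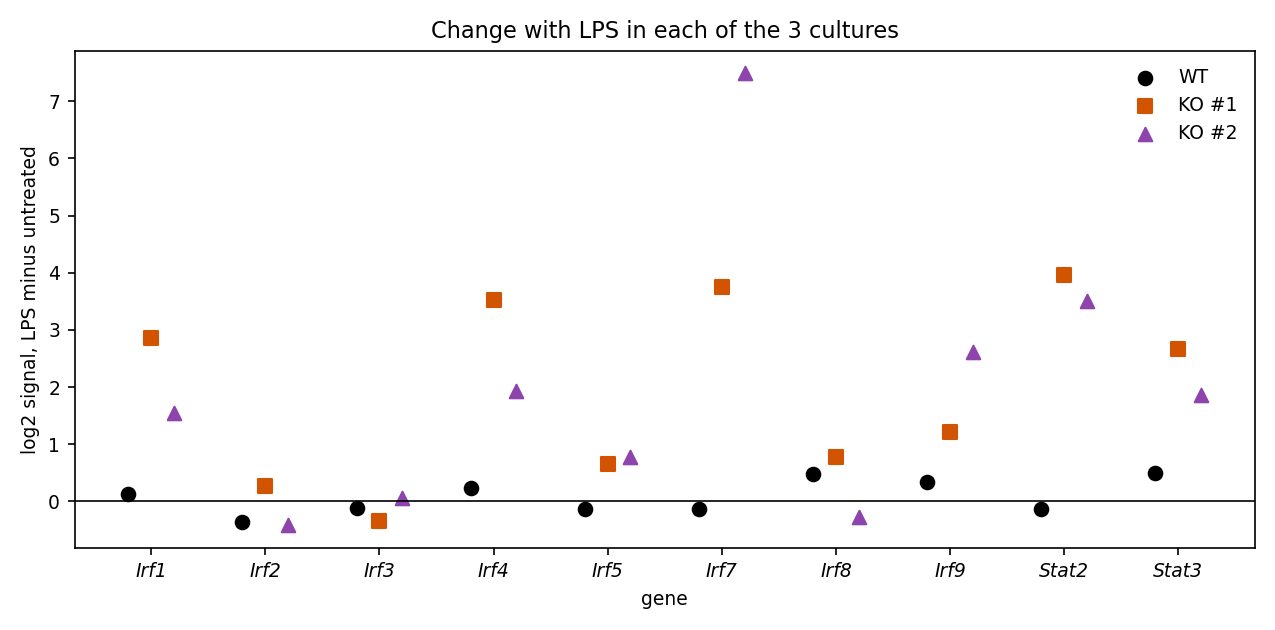
Change of the log2 signal with LPS (vertical axis) for each gene (horizontal axis) in WT cells (circles), KO #1 (squares) and KO #2 (triangles), 1 array against 1 array per point. WT values lie between -0.36 and 0.50, and the KO values of Irf7 are 3.74 and 7.49, the latter from an untreated signal below background.

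The difference between the 2 LPS responses was tested itself, and 1 of the 10 genes passed upward, Stat2, against 1.43% of all genes. Its response was larger in KO than in WT cells by 3.87 (SE 0.68, 95% interval 2.19 to 5.56, limma adjusted p = 0.0474). This call was close to the threshold, and was lost without untreated clone #1 (limma adjusted p = 0.102), without untreated clone #2 (limma adjusted p = 0.139) and after cyclic loess (limma adjusted p = 0.0504). Stat3 differed by 1.77 (SE 0.40, limma adjusted p = 0.0915) and passed without LPS-treated clone #2 (2.05, limma adjusted p = 0.0243). For Irf7 the difference was 5.75 (SE 2.72, limma adjusted p = 0.37), and for Irf1 2.07 (SE 0.92, limma adjusted p = 0.341). Without untreated clone #1, that of Irf7 was 8.32 and passed (limma adjusted p = 0.0456), and without LPS-treated clone #2, that of Irf1 was 2.92 and passed (limma adjusted p = 0.0114). Irf4, dim throughout, differed by 2.4997 (limma adjusted p = 0.207) and passed without LPS-treated clone #1 or #2 (limma adjusted p = 0.0422 and 0.00551). This comparison shares its arrays with those above and adds no independent samples.

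The clones themselves were compared over both treatments, and 0 of the 10 genes passed, against 0.169% of all genes (limma), while 5 of the 10 and 1355 of all genes had an unadjusted p under 0.05. Clone #1 was above clone #2 in both treatments for 6 of the 10 genes, against 23.1% of all genes. For Irf7 the gap was 5.14 untreated, at least 3.20 above background, and 1.40 with LPS, with a mean of 3.27 (SE 0.74, limma adjusted p = 0.329). It passed only when each array was centred on its median (limma adjusted p = 0.0299). Irf9 had gaps of 1.87 and 0.47 and Stat2 of 0.63 and 1.08, and untreated clone #2 was below background for both, so their untreated gaps are at least 0.23 and 0.32. With LPS, clone #1 was higher for 9 of the 10 genes, all but Irf3, against 45.9% of all genes. Irf4 and Irf8 among them were dim.

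Genes that act with the IRFs and STATs were counted in 8 lists, with KO against WT cells with LPS as the comparison. The lists overlap: Ifi35 is both a co-regulator and an ISGF3 target, and Socs3 both an inhibitor and a STAT3 target. Of all genes, 4.62% rose and 6.66% fell here, and the counts of the lists are read against these shares. Of 18 kinases, adaptors and sensors that activate IRF3 and IRF7, 9 rose and 0 fell, with a median of 1.15. The RNA sensors led, with Ddx58 at least 53.5-fold higher (limma adjusted p = 0.00696) and Ifih1 higher by 6.29 on the log2 scale (limma adjusted p = 0.00802). In WT with LPS Ifih1 read 9.31, near that array's background of 9.12. The endosomal receptor gene Tlr3 was at least 8.11-fold higher (limma adjusted p = 0.0164), but at least 22.5-fold in clone #1 and 2.92-fold in clone #2. Tlr3 already read 10.65 and 9.62 in untreated KO #1 and #2, and 5.21, below background, in untreated WT. Its change with LPS in KO cells did not pass (1.998, SE 0.93, limma adjusted p = 0.236). Of 15 interferons, receptors and Janus kinases, 2 rose, and these were Il10ra, the receptor subunit for interleukin-10, by 2.22, and the kinase gene Jak2, by 2.12 (limma adjusted p = 0.00797 and 0.0097). The count was 4 without LPS-treated clone #2, 4 with cyclic loess or over 2-fold, and 5 with an intensity trend or with dim genes left out. Ifnb1, the gene that IRF3 turns on, was dim on all 6 arrays. It read 5.81 and 5.88 in WT without and with LPS, 5.70 and 6.21 in untreated KO, and 8.05 and 6.30 in KO #1 and #2 with LPS, and did not pass (1.30, SE 0.68, limma adjusted p = 0.32). Among 4 further family members, Stat5a rose by 1.67 (limma adjusted p = 0.00563).

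Of 13 DNA-binding partners and co-regulators of IRFs, 2 rose and 1 fell, against 4.62% and 6.66% of all genes, and without either untreated KO array 1 rose. Those that rose were Ifi35, by 3.51, and Nmi, at least 2.37-fold, whose products bind each other (limma adjusted p = 0.0172 and 0.0214). In WT with LPS Ifi35 read 9.22, near that array's background of 9.12. Clone #2 alone gave at least 1.47-fold for Nmi. Batf, which partners IRF4 and IRF8 in lymphoid and dendritic cells, fell by 2.66 (limma adjusted p = 0.00416) but was dim in both groups. Of 16 inhibitors of interferon and STAT signaling, 5 rose, 2 of them dim in both groups, against 4.62% of all genes. Isg15, a ubiquitin-like modifier, was at least 30.1-fold higher (limma adjusted p = 0.00146), and Trim21, a ubiquitin ligase, at least 2.21-fold (limma adjusted p = 0.0106). Socs3, the feedback inhibitor of STAT3 signaling, rose by 4.36 (limma adjusted p = 0.000606).

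The target genes were read in 3 lists drawn from known targets of each factor. These and the other lists were written with earlier results of these data known. Of 20 ISGF3 targets, 14 rose and 0 fell, with a median of 5.74, against 4.62% and 6.66% of all genes. Ifit3 was at least 94.0-fold higher, Ifit1 at least 39.9-fold and Cmpk2 at least 32.0-fold (limma adjusted p = 0.00212, 0.00179 and 0.0127). Ifit1 and Ifit3 encode antiviral proteins and Cmpk2 a mitochondrial nucleotide kinase. Clone #2 alone gave at least 48.1-fold for Ifit3 and 11.4-fold for Cmpk2. Of the 20, 6 passed with a robust intensity trend, 20 with the clone as a block (5.88% of all genes rose there) and 14 to 17 under the other fits. Of 16 IRF1 targets, 8 rose and 0 fell, with a median of 2.35, and 5 passed with the robust trend. Gbp2 and Igtp, GTPases of cell-autonomous immunity, were at least 10.4-fold and 11.6-fold higher, and the cytokine gene Il15 at least 13.8-fold (limma adjusted p = 0.00791, 0.00724 and 0.00309). In clone #2 alone the limits were 3.95-fold for Gbp2, 6.61-fold for Igtp and 7.63-fold for Il15. Of 12 STAT3 targets, 7 rose, 1 of them dim in both groups, with a median of 1.38. Timp1, a metalloproteinase inhibitor, rose by 5.36 and the kinase gene Pim1 by 3.73 (limma adjusted p = 0.00112 and 0.00301). In WT with LPS Timp1 read 9.21, near that array's background of 9.12.

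Before LPS, none of the 20 ISGF3 targets passed between KO and WT cells in either direction, and 1 of the 16 IRF1 targets rose, Casp1, by 1.64, where 2.16% of all genes rose and 2.14% fell. With the clone as a block 4 ISGF3 targets passed upward, Ifi44l, Oas3, Mx2 and Oasl2 (limma adjusted p = 0.000933, 0.0241, 0.0258 and 0.0363). So did 5 IRF1 targets, where 3.54% of all genes passed upward. Ifi44l read 10.08 in clone #1 but 4.75, below background, in clone #2, and 4.53 in WT. Oasl2 read 8.72 and 5.95 in clones #1 and #2 and 6.22 in WT, while Oas3 and Mx2 were above WT in both clones. A constant gap between the clones does not count as error in this fit. Mx2 and Oasl2 were dim in both untreated groups. Of the 12 STAT3 targets, 4 fell in KO cells, against 2.14% of all genes. The log2 differences were -3.58 for Timp1, -2.89 for the growth regulator Myc, -2.77 for Socs3 and -1.59 for the NF-κB cofactor Bcl3 (limma adjusted p from 0.00206 to 0.0155). Of the 18 kinases, adaptors and sensors, 3 rose and 1 fell before LPS, and 7 rose with the block, against 3.54% of all genes. Ticam2, among those that rose, was dim in both untreated groups. Tlr7, also among them, was higher in KO cells by 3.42 untreated (limma adjusted p = 0.00699) and by 2.51 with LPS. Tlr4, the LPS receptor, read 9.80 in untreated WT cells and 12.92 and 13.09 in untreated KO cells, a rise of 3.20 (limma adjusted p = 0.00206), and with LPS it read 9.47 in WT and 9.97 and 10.13 in KO cells. The genes of this paragraph were named after their values were seen. Stat3 itself did not pass in these cells. Timp1 and Socs3 were dim in both untreated groups. In KO cells LPS then raised 9 of the 12 STAT3 targets, 15 of the 20 ISGF3 targets and 7 of the 16 IRF1 targets, and none of these genes fell, where 6.84% of all genes rose and 9.80% fell. With the clone as a block 11 of the 16 IRF1 targets rose, against 7.97% of all genes.

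The clones were set against each other in the same lists. Clone #1 was higher for 19 of the 20 ISGF3 targets untreated and for all 20 with LPS, with medians of 1.67 and 1.46. The IRF1 targets were higher in clone #1 for 12 and 16 of 16, with medians of 0.83 and 1.35. STAT3 targets were higher there for 8 and 6 of 12, with medians of 0.14 and -0.06, where 49.1% and 45.9% of all genes were higher in clone #1. All genes of a clone come from the same arrays, so these counts describe 2 cultures per treatment and carry no test.

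**Figure D4:**
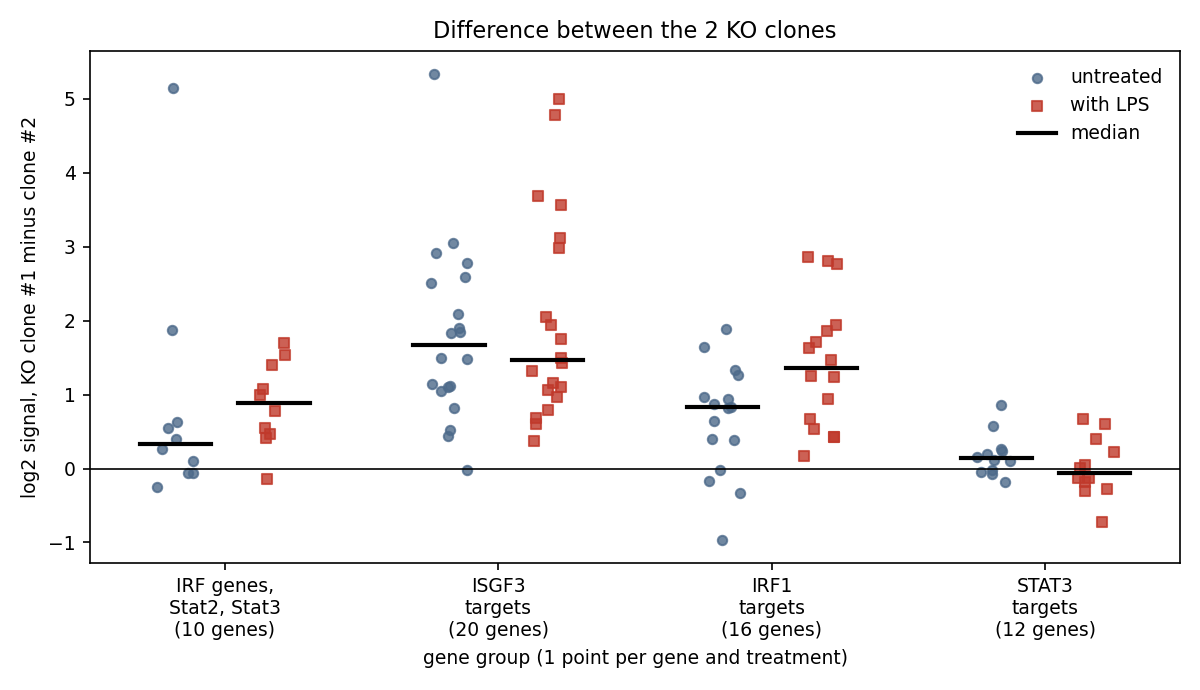
Log2 signal of KO clone #1 minus clone #2 (vertical axis) for the IRF and STAT genes and for 3 lists of targets (horizontal axis), untreated (circles) and with LPS (squares), 1 point per gene, with the median as a line. ISGF3 targets have medians of 1.67 and 1.46, STAT3 targets of 0.14 and -0.06.

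Patterns over the 6 arrays were compared as a description, with Pearson's r and no test, as the arrays fall in few groups and share their treatment. Among the 10 genes, Irf7 and Irf9 had the highest correlation, r = 0.987, followed by Irf1 and Stat2, r = 0.979. Irf3 correlated below 0 with each of the other 9. Among 6707 other genes above background on at least 1 array, those most like Irf7 were Rtp4 (r = 0.9925), Lgals9 (0.9918), Kctd10 (0.9897), Ip6k2 (0.9896) and Usp18 (0.9884), of which Rtp4 and Usp18 are interferon-stimulated genes. The genes most like Stat3 were Ino80 (r = 0.9992), Smcr8 (0.999), Lrrfip1 (0.9973), Abhd1 (0.9968) and Furin (0.9956). Those most like Irf8, a dim gene, were Fars2 (r = 0.9715), Acadvl (0.9682), Evl (0.9598), Tbca (0.9556) and Apaf1 (0.9539).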

How the data were processed

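Total RNA of WT and Lpin2 KO RAW-D cells was measured on 6 Clariom S arrays, in groups of genotype and treatment taken from the labels. The deposited log2 values were made by the authors with RMA in Expression Console, which corrects background, applies quantile normalization and summarises probes. No software version is stated in those sources. The untreated WT array is labelled with a gene-level summary and the other 5 with an exon-level summary.

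Of 22206 gene probe sets, 19572 had 1 symbol in the array annotation and 2634 none. Where a gene had several probe sets (55 genes), that of the highest mean stood for it, which left 19505 genes. The tests were run in R 4.3.3 with limma 3.58.1, fitting 1 mean for each group on 2 residual plus 3.83 prior degrees of freedom. P-values were adjusted across all genes by Benjamini-Hochberg, with 0.05 as the threshold. A fold against a dim group used the background in place of its signal and is a lower bound. Clones #1 and #2 were each measured in both treatments, so the clone number pairs the samples, and deviations of a clone from the group means had a correlation across genes of 0.222 between treatments. The clone number was added as a block in a second fit, on 1 residual degree of freedom, whose p does not cover variation between clones. Genes over 2-fold, the rule the study applied to these arrays, were counted without a test. Alternatives changed the normalization, moderation, filter, probe set rule, background and samples. The fits were tested on simulated data. The number of arrays limits the precision.

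The 10 genes and the gene lists were chosen with earlier results of these data known. From each list, the text names up to 3 genes with the largest rise and up to 2 with the largest fall among those that passed with LPS, plus Ifnb1, and the 5 genes most like Irf7, Irf8 and Stat3. Other genes are named only where the text says that they were chosen after their values were seen. List members without a probe set with a symbol were not analysed here.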

Additional observations from a re-analysis of the deposited data

Results flagged for a closer look

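The LPS response of Stat2 was larger in KO than in WT cells, by a test of the difference itself. KO clones #1 and #2 rose by 3.96 and 3.51 with LPS, where WT changed by -0.14. The difference between the responses was 3.87 (SE 0.68, limma adjusted p = 0.0474), and its adjusted p ran from 0.00169 to 0.139 over 12 alternatives. WT was below background in both treatments, so its change is not measured above background, and its untreated array is the one with the gene-level label. Groups had 1 or 2 arrays, too few to look for an array that stands apart within a group.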

How the results depend on the processing

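Of 698 values of the 10 genes under the alternatives, 641 kept their direction and side of the threshold, 12 lost the call, 35 gained it and 10, none of them called, changed sign. KO against WT cells with LPS gave 5 calls among the 10 genes, 8 with the clone as a replicate block, 8 over 2-fold and 4 to 7 with 1 KO array left out. Untreated, there were 0 calls, but 2 with the block, 2 over 2-fold, 2 with the arrays of 1 treatment alone and 0 to 2 with 1 array left out. For LPS in KO cells, the 4 calls became 7 with the block and 2 to 4 with 1 array left out. For the difference between the responses, the 1 call became 0 with cyclic loess, 2 with an intensity trend, with or without robust moderation, 6 over 2-fold and 0 to 4 with 1 array left out. Between the clones, 0 calls became 1 with median-centred arrays and 3 over 2-fold. With 1 array left out, differences that changed sign ran from -1.93 to 3.21 for Irf7 untreated, -0.12 to 1.75 for Irf9 untreated, -0.24 to 0.75 for Irf8 and -0.47 to 0.31 for Irf2 with LPS in KO, and, between the responses, -0.11 to 0.67 for Irf2, -0.15 to 0.11 for Irf3 and -0.73 to 0.26 for Irf8. The Irf3 value between the responses was also 0.0016 after repeated quantile normalization and 0.022 after cyclic loess. The cause of these shifts was not tested. Over all genes, the 840 calls of the untreated comparison became 1339 with the block, 1270 with an intensity trend, 1437 with the robust trend, 1473 over 2-fold and 214 or 222 without an untreated KO array. The 3246 calls for LPS in KO cells became 1536 or 1485 without an untreated KO array. The 0 calls for LPS in WT cells became 1 with the trend, 2 with the robust trend and 144 over 2-fold. The 641 calls between the responses became 1078 with the block, 162 or 185 without an untreated KO array, 1175 without LPS-treated clone #2 and 2439 over 2-fold. The 33 calls between the clones ran from 21 to 206. With the 99th percentile of the negative controls as background, 7 of the 10 genes were dim on all arrays, where 2 were with the 95th.

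Signal over background limits Irf4 and Irf8, which were dim on every array, and the WT values of Irf1, Irf5, Irf9 and Stat2. WT had 1 array per treatment, so no spread between WT cultures was measured, and a lone array was assumed to vary like the KO clones, also where 1 KO array was left out. All values are RNA at 1 time, 4 h.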
